A study of Mus musculus with 18 samples.

Results

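Secreted signals of the Wnt, transforming growth factor beta (TGF-β), bone morphogenetic protein (BMP) and fibroblast growth factor (FGF) families, with their receptors and inhibitors, were examined in sorted alpha, beta and delta cells of mouse pancreatic islets. The members were genes whose symbol begins with Wnt, Fzd, Sfrp, Dkk, Bmp, Tgfb, Inhb, Gdf, Fgf or Acvr and whose expected counts summed to 90 or more over 18 libraries. This left 54 genes out of 117 with such symbols and 55487 genes listed. They comprised 5 Wnt ligands, 7 Frizzled receptors, 2 Wnt inhibitors, 10 ligands and 12 receptors of the TGF-β superfamily, 4 secreted FGFs, 3 intracellular FGFs, 4 FGF receptors and 7 proteins that carry a family name but are none of these. At the limit, Tgfbi with a sum of 89 and Bmp2 with 72 fell outside, while Fgfrl1 with 101 and Dkk3 with 106 were inside. Of the 54 members, 53 passed the filter on low counts and were tested. Dkk3 did not.

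Wnt ligands are lipid-modified proteins that bind Frizzled receptors together with the co-receptors Lrp5 and Lrp6 and can stabilise β-catenin, and secreted Frizzled-related proteins such as Sfrp5 bind Wnts outside the cell. TGF-β superfamily ligands assemble a complex of type I and type II receptor kinases that phosphorylate Smad proteins, with one set of Smads downstream of BMPs and another downstream of TGF-β and activins. Secreted FGFs bind receptor tyrosine kinases, whereas the intracellular FGFs are not secreted and bind voltage-gated sodium channels. All these families act in pancreas development, and Wnt4 is known from mature islets.

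The islets came from C57BL/6 mice. They were kept for 20 h with interferon gamma (IFNγ) at 5 ng/mL or without it, then made into single cells and sorted. Cells were gated on the epithelial marker Epcam and against blood and endothelial markers (CD45, TER119, CD31), and CD24 and CD71 separated alpha (CD24 low, CD71 negative), beta (CD24 low, CD71 positive) and delta cells (CD24 high). Each cell type was measured in 3 control and 3 IFNγ libraries. Controls of every cell type were cultured islet cells too, so culture, dissociation and sorting are shared by all groups, and the cells met IFNγ inside whole islets. The study describes each n as an independent biological sample. The labels do not say which libraries of different cell types or treatments came from the same islets.

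Summed expected counts per library ran from 6128845 to 11531734 (median 8697388). The level of a gene is its CPM, its count over the normalised library size, with values of replicates 1, 2 and 3 in that order, and levels of different genes are compared only as TPM, the deposited unit that also accounts for transcript length. Log2 differences are alpha minus beta, delta minus beta or delta minus alpha, ± SE, with edgeR's adjusted p. The hormones matched the labels. Glucagon (Gcg) was between 74630 and 117400 CPM in alpha libraries, insulin (Ins2) between 17510 and 30180 in beta libraries and somatostatin (Sst) between 9561 and 35920 in delta libraries. Genes of the other islet cells were present too. The sum of 7 beta genes was 58860, 52860 and 59110 CPM in beta controls. It was 3071, 11490 and 1558 in alpha and 4977, 7272 and 6613 in delta controls. The sum of 6 alpha genes was 1312, 3195 and 244 CPM in beta and 105, 294 and 2341 in delta controls, against 83420 to 121900 in alpha controls. The sum of 5 delta genes was 37720, 36590 and 16950 CPM in delta controls. In delta IFNγ libraries it was 11230, 15320 and 16750 CPM, each below every delta control. Markers of other cells were measured in the same libraries. The summed level of 10 acinar genes was 382 to 1852 CPM in delta libraries and 1630 in beta control 1, against 0.457 to 119 in the other alpha and beta libraries. The pancreatic polypeptide gene Ppy stood at 784 to 2476 CPM in delta and at 1241 to 2410 in alpha libraries. The summed level of 7 duct genes was 256 to 1423 CPM, most of it Spp1, with its highest values in alpha libraries, and Krt7, with its highest in beta libraries. The duct gene Sox9 was at 17.1 to 34.5 CPM in delta libraries and at most 0.585 in the others, and Krt19 and Cftr reached 7.27 and 3.76 CPM in delta libraries. Summed endothelial markers reached at most 9.74, immune markers 4.71 and mesenchymal markers 14.4 CPM. The part of acinar, duct and polypeptide cells in the delta levels was not tested, nor was that of other islet cells in any library. Beta control 3 carries the word papain in its file name where the other beta libraries carry CD71.

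**Figure D1:**
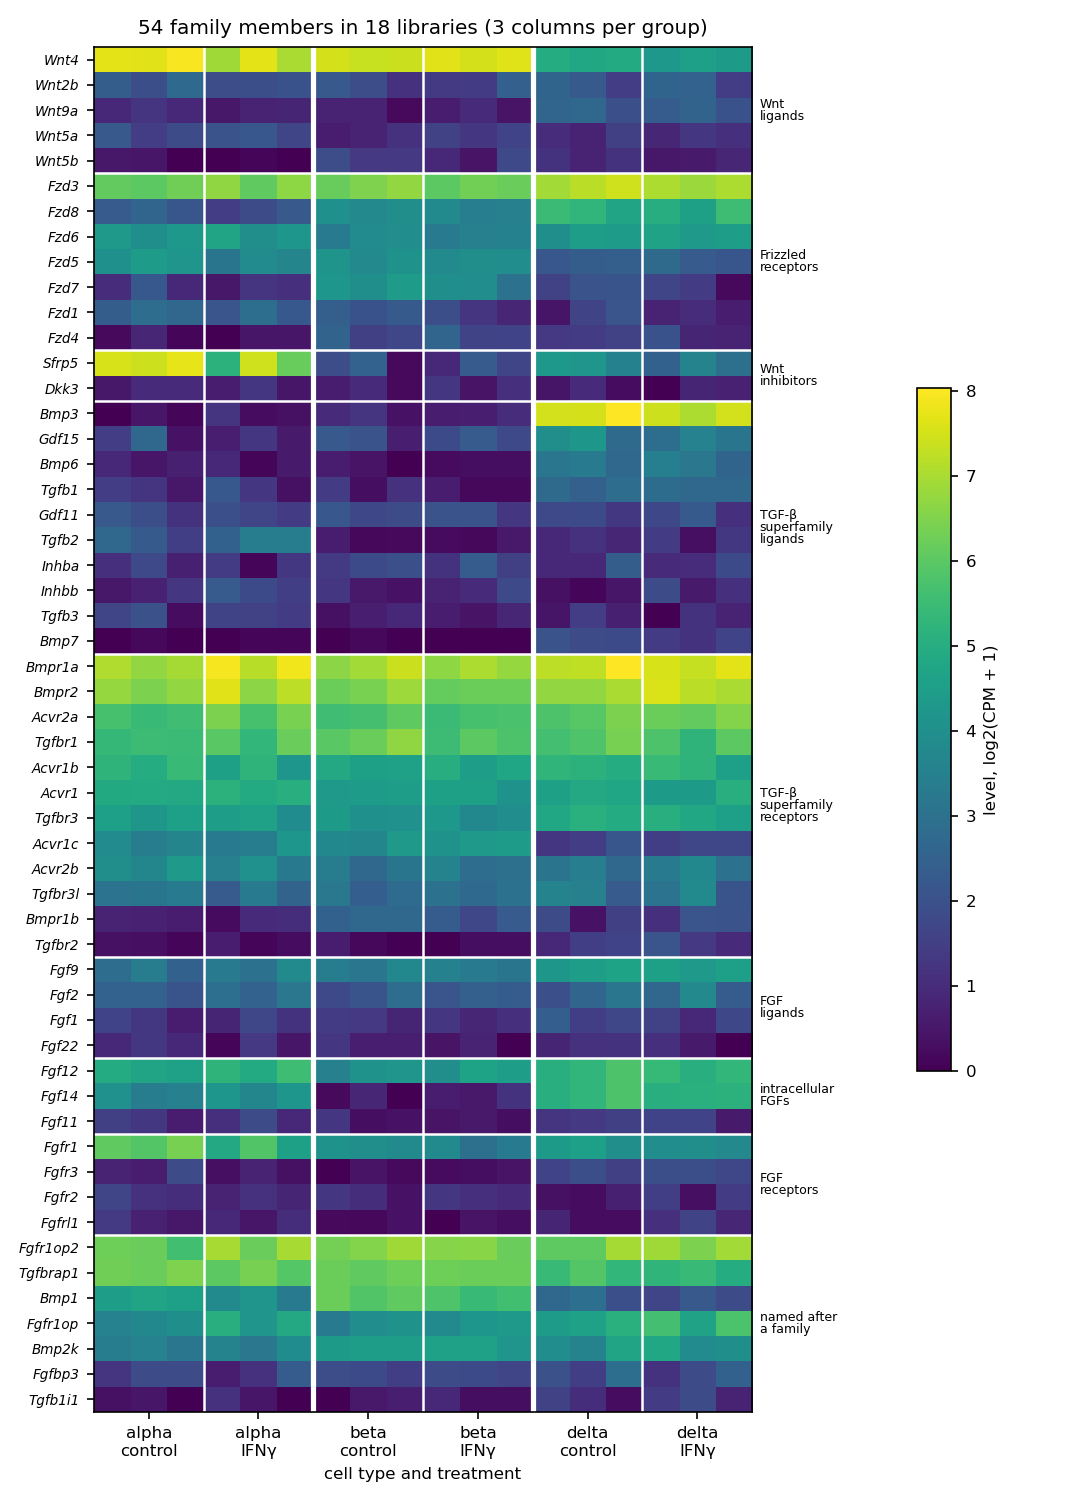
Levels of the 54 members as log2(CPM + 1), 1 column per library, ordered by role and, within a role, by mean level; white lines separate roles and groups. Wnt4 was bright in alpha and beta libraries, Sfrp5 in alpha controls, Bmp3 in delta libraries only and the receptors Bmpr1a and Bmpr2 in every library.

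Most members were present in more than 1 cell type. With a mean of 1 CPM or more in controls as the limit, 43 members were present in alpha, 37 in beta and 48 in delta cells, and 34 in all of them. In control libraries, 16 of 53 tested members (30.2%) differed between alpha and beta cells at an adjusted p under 0.05 (edgeR, adjusted over all 17338 tested genes), where 19.7% of all tested genes did. Of these members, 8 were higher in alpha cells (all genes, 9.56%) and 8 in beta cells (all genes, 10.1%). Between delta and beta cells, 22 members (41.5%) differed against 20.5% of all genes, and 16 of them were higher in delta cells (30.2%, against 11.4% of all genes) and 6 lower (all genes, 9.11%). Between delta and alpha cells, 21 members (39.6%) differed against 19.7% of all genes, 12 of them higher (all genes, 10.9%) and 9 lower in delta cells (all genes, 8.77%). In bulk libraries a larger share of cells that express a gene and more RNA per cell cannot be told apart. The median log2 difference over the tested members was 0.48 for delta against beta cells and 0.49 for delta against alpha cells, where the medians over all genes were 0.05 and 0.03.

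The 9 IFNγ libraries share no library with the controls and gave a second measurement of the same cell type differences, although the same islet preparations may have been used. Of the 16 members that differed between alpha and beta controls, 12 (75%) differed in the same direction between the IFNγ libraries of those cells, and these were 70.6% of the 17 called there, where 27.1% of all genes were called. For delta against beta cells, 20 members were called in the same direction in both sets, 90.9% of the 22 control calls and 76.9% of the 26 calls among IFNγ libraries, where 36.4% of all genes were called. For delta against alpha cells the number was 17, which was 81.0% of 21 and 85.0% of 20 calls, with 16% of all genes called among IFNγ libraries. No member was called in opposite directions. How many of all genes called between controls were called again was not computed. The shares of repeated calls therefore have no value for all genes to be set against. With the date in the file names as a fixed term, the calls between IFNγ libraries fell to 6 for delta against beta cells (11.3%, all genes 6.48%) and to 10 for delta against alpha cells (18.9%, all genes 8.96%). No beta and delta IFNγ library share a date. Of the delta libraries, only delta control 3 and delta IFNγ 1 share a date with a library of another group. With the date term each delta group was therefore compared through that library alone. For delta calls lost in that fit, an effect of date and the loss of replicates cannot be told apart. Over both sets, 38 of 53 members differed between at least 1 pair of cell types and 15 did not. Among the 15 were Gdf11, Inhba, Inhbb, Fgf1, Fgf2 and Acvr1b. The number of all genes called in at least 1 of these comparisons was not computed. These counts therefore have no share of all genes beside them.

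**Figure D2:**
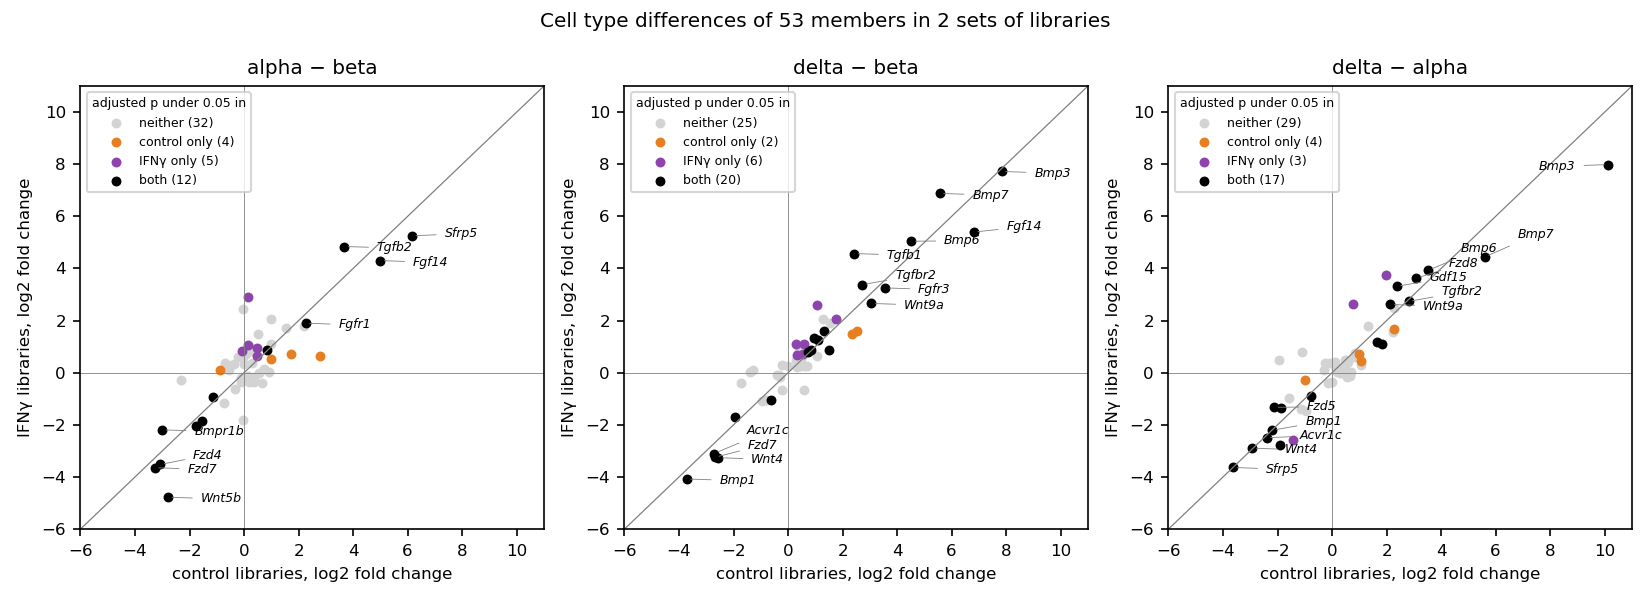
Log2 fold changes between cell types of the 53 tested members in control libraries (horizontal) and in IFNγ libraries (vertical); the grey line marks equal values, colours mark the set in which the adjusted p was under 0.05, and counts are in the legend. Members called in both sets, 12, 20 and 17, all lay on the same side of 0 in both.

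Among the Wnt ligands, Wnt4, which is known to be made by mature islet endocrine cells, was by far the most abundant in alpha and beta cells. It made up 95.6% ± 1.1 (SD, n = 3) of the summed TPM of the 5 Wnt ligands in control alpha cells, 94.6% ± 1.9 in beta cells and 67.2% ± 5.6 in delta cells. The gene lies on chromosome 4 (chr4:137277489-137299726, GRCm38, plus strand). Its level was 207, 205.5 and 247 CPM in control alpha cells, 181, 162.5 and 165 in beta cells and 30.5, 26.8 and 29.4 in delta cells. Every delta library was below every alpha and beta library, and alpha and beta cells did not overlap either. Wnt4 was 7.59-fold lower in delta than in alpha cells (log2 difference −2.92 ± 0.20 SE, adjusted p = 1.75e-08) and 5.86-fold lower than in beta cells (−2.55 ± 0.20, adjusted p = 3.92e-08), while alpha and beta cells were not called different. In delta cells the remaining Wnt4 was 17% of the beta level, where Ins2 was at 0.369% of its beta level, and 13.2% of the alpha level, where Gcg was at 0.909%. Ins2 is 1 of 7 beta genes whose sum was 4977, 7272 and 6613 CPM in delta and 58860, 52860 and 59110 in beta controls, a smaller gap than that of Ins2. The part of beta cell RNA in the delta level was not tested.

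Wnt9a was higher in delta cells than in the others, although Wnt4 remained the most abundant Wnt ligand there. Wnt9a stood at 5.15, 5.51 and 2.91 CPM in control delta libraries, against 0.872, 1.34 and 0.855 in alpha and 0.712, 0.703 and 0.152 in beta libraries. The delta libraries were all above the others, with an 8.29-fold difference from beta (log2 3.05 ± 0.54, adjusted p = 0.000368) and a 4.40-fold difference from alpha cells (2.14 ± 0.50, adjusted p = 0.00488). It made up 13.4% ± 3.9 of Wnt ligand TPM in delta cells and under 1% in the others. Wnt5a and Wnt5b, relatives that act largely without β-catenin, split between alpha and beta cells. Wnt5a was at 3.78, 1.74 and 2.67 CPM in alpha and 0.570, 0.703 and 1.22 in beta cells (log2 1.71 ± 0.50, adjusted p = 0.0203). Wnt5b was at 0.436, 0.402 and 0 CPM in alpha and 2.71, 1.52 and 1.52 in beta cells (−2.79 ± 0.86, adjusted p = 0.0278). These are few counts, and each call rested on single libraries. The Wnt5a call was lost without alpha control 1, beta control 1 or beta control 2 (adjusted p from 0.083 to 0.1) and without the filter on low counts (0.0887), and the Wnt5b call without any 1 of the alpha controls or beta control 1 or 3 (from 0.0504 to 0.119). Between IFNγ libraries Wnt5b was called again, lower in alpha than in beta cells, with a single count over all alpha libraries and a ratio of summed counts of 40.9 (95% counting interval 6.78 to 1670), and Wnt5a was not. Wnt2b showed no call, with mean TPM between 0.490 and 0.900 in control cells.

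Frizzled receptors differed in make-up between the cell types. Their summed TPM was 10.1 ± 1.2 in control alpha, 11.1 ± 1.2 in beta and 13.4 ± 2.8 in delta cells. Fzd3 held 33.2% ± 4.7, 32.6% ± 5.0 and 42.9% ± 6.3 of the summed TPM, and Fzd6 held 33.5% ± 4.8, 19.6% ± 2.3 and 26.6% ± 4.1. Next came Fzd5 (18.6% ± 3.1) and Fzd1 (7.79% ± 1.05) in alpha cells, Fzd7, Fzd5 and Fzd8 in beta cells (18.2% ± 0.8, 12.1% ± 3.5 and 11.1% ± 1.3) and Fzd8 in delta cells (23.1% ± 7.9).

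Fzd7 marked beta cells, at 17.5, 15.1 and 20.4 CPM against 1.02, 3.61 and 0.855 in alpha and 1.91, 3.14 and 3.22 in delta cells. No other control library reached the beta range, and the differences were 9.69-fold from alpha (log2 −3.28 ± 0.61, adjusted p = 0.000725) and 6.40-fold from delta cells (−2.68 ± 0.58, adjusted p = 0.00227). In alpha cells Fzd7 was at 10.3% of the beta level and Ins2 at 10.5%, whereas in delta cells these values were 15.6% and 0.369%. The sum of 7 beta genes, at 4977 to 7272 CPM in delta and 52860 to 59110 in beta controls, differed less than Ins2. Fzd4 was also higher in beta cells, at 4.84, 1.87 and 2.28 against 0.145, 0.803 and 0.107 CPM in alpha cells (−3.07 ± 0.85, adjusted p = 0.0156). That call was lost without alpha control 1 or 3 or beta control 1 (adjusted p from 0.071 to 0.0844).

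Fzd8 formed a gradient. It was at 3.92, 5.22 and 3.42 CPM in alpha, 15.4, 12.6 and 14.8 in beta and 43.4, 38.3 and 25.1 in delta controls, with no overlap between any pair. Delta cells exceeded alpha cells 8.51-fold (3.09 ± 0.32, adjusted p = 1.29e-06) and beta cells 2.5-fold (1.32 ± 0.29, adjusted p = 0.0026), and beta exceeded alpha cells 3.41-fold (−1.77 ± 0.32, adjusted p = 0.000484). Fzd5 went the other way, at 15.4, 20.3 and 17.1 CPM in alpha, 16.8, 12.9 and 16.6 in beta and 3.53, 4.22 and 4.36 in delta cells. It was 4.36-fold lower in delta than in alpha (−2.12 ± 0.26, adjusted p = 9.6e-06) and 3.81-fold lower than in beta cells (−1.93 ± 0.26, adjusted p = 2.21e-05). Fzd3, by TPM the most abundant Frizzled in beta and delta cells, was higher in delta cells at 120, 146 and 174 CPM against 67.8, 63.2 and 77.3 in alpha and 71.2, 89.3 and 106 in beta cells. The difference from alpha cells was 1.08 ± 0.20 (adjusted p = 0.000806), and it was not called between IFNγ libraries. The smaller difference from beta cells, 0.72 ± 0.20 (adjusted p = 0.0145), was lost without beta control 1 (0.0884) or delta control 3 (0.0694). Between IFNγ libraries the difference from beta cells was called again, and lost with GC content fitted per library (0.0551) and with the date term.

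**Figure D3:**
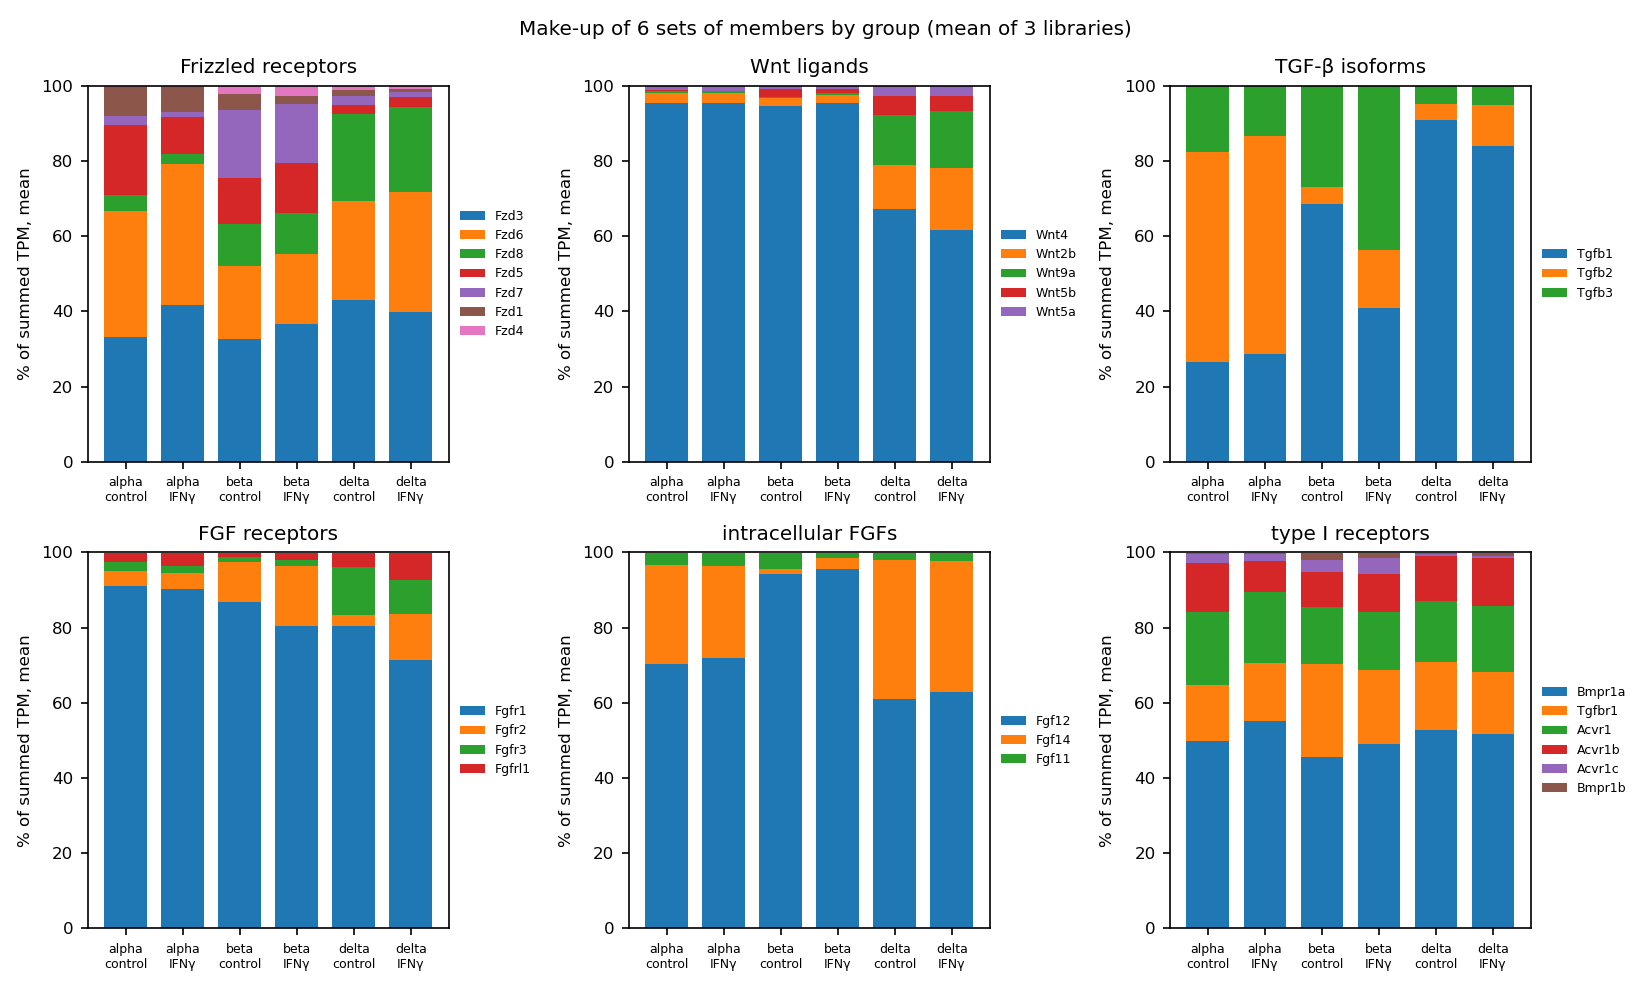
Make-up of Frizzled receptors, Wnt ligands, TGF-β isoforms, FGF receptors, intracellular FGFs and type I receptors in each group, as the mean percent of the summed TPM over 3 libraries. Fzd7 was 18.2% of Frizzled TPM in control beta cells and 2.4% and 2.3% in alpha and delta cells, and Tgfb1 was 90.8% of TGF-β isoform TPM in delta cells and 26.5% in alpha cells.

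Sfrp5, a secreted Wnt inhibitor, was an alpha cell transcript. The gene lies at chr19:42197971-42202252 (GRCm38, minus strand). Its level was 187, 171 and 211 CPM in control alpha libraries, 2.71, 4.80 and 0.152 in beta libraries and 18.4, 17.1 and 10.5 in delta libraries. The ranges of the cell types did not overlap. Alpha cells exceeded beta cells 71.1-fold (log2 6.15 ± 0.69, adjusted p = 4.18e-06) and delta cells 12.3-fold (3.63 lower in delta, SE 0.58, adjusted p = 0.000176), and delta exceeded beta cells 5.76-fold (2.53 ± 0.64, adjusted p = 0.00758). The difference between delta and beta cells was not called between IFNγ libraries (log2 1.62). In beta cells Sfrp5 was at 1.35% of its alpha level, close to Gcg at 1.5%. In delta cells it was at 8.09% with Gcg at 0.909%. The other inhibitor among the members, Dkk3, had a mean TPM of 0.083 to 0.150 in control cells and was not tested. Frzb, a Wnt antagonist outside the member symbols, went the other way from Sfrp5. It was lower in alpha than in beta controls (−3.56 ± 0.58, adjusted p = 0.000208). For delta minus alpha controls it was at 3.83 ± 0.59 (adjusted p = 0.000102), and delta and beta controls were not called different.

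With the date in the file names as a fixed term, the calls of Wnt9a (adjusted p = 0.214 against alpha and 0.0712 against beta cells), Fzd8 (0.0821) and Sfrp5 (0.0991) were lost, the last ones for delta against beta controls. Without beta control 1 and delta control 3, the libraries of highest acinar sum in their groups, the calls of Fzd3 (delta against beta, 0.221), Fzd4 (0.076), Wnt5a (0.0726) and Wnt5b (0.102) were lost.

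Among TGF-β superfamily ligands, BMPs were transcripts of delta cells. The summed TPM of Bmp3, Bmp6 and Bmp7 was 18.1 ± 3.4 in control delta cells, 0.143 ± 0.015 in alpha and 0.133 ± 0.090 in beta cells, and Bmp3 made up 91.4% ± 2.8 of the delta sum. Bmp3, an atypical BMP that binds type II receptors and is known to dampen BMP signalling, lies at chr5:98854415-98884396 (GRCm38, plus strand). It stood at 176.5, 183.5 and 259 CPM in control delta libraries, against 0, 0.401 and 0.107 in alpha and 0.997, 1.29 and 0.304 in beta libraries. The delta libraries were apart by more than 2 orders of magnitude. The fitted log2 difference was 7.83 ± 0.47 from beta (227-fold, adjusted p = 1.7e-09) and 10.14 ± 0.56 from alpha cells (adjusted p = 1.06e-09), where the alpha level rested on a handful of counts. Bmp3 in beta cells was at 0.419% of the delta level and Sst at 0.146%, and in alpha cells these values were 0.0822% and 0.113%.

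Bmp6, a ligand that signals through the BMP type I receptors, was at 7.83, 9.19 and 5.50 CPM in delta cells and at most 0.872 in alpha and 0.570 in beta controls. It was 22.9-fold higher than in beta (4.52 ± 0.65, adjusted p = 4.47e-05) and 11.6-fold higher than in alpha cells (3.53 ± 0.59, adjusted p = 0.000251). Bmp7 was at 3.15, 2.60 and 2.49 CPM in delta cells, with a single count in all alpha and a single count in all beta controls. The ratio of summed counts was 65.4 against alpha (95% counting interval 11.4 to 2620) and 61.1 against beta cells (10.7 to 2440), and both differences were called (adjusted p = 0.000339 and 0.00032). In IFNγ libraries, where beta cells had no Bmp7 count, delta cells were at least 13-fold higher, against a floor of 3 counts over the group.

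Transforming growth factor isoforms divided between cell types as well. Tgfb2 was at 5.38, 3.88 and 1.82 CPM in alpha controls, against 0.570, 0.117 and 0.152 in beta and 0.859, 1.19 and 0.830 in delta controls. Alpha cells were above both, 12.8-fold against beta (3.67 ± 0.72, adjusted p = 0.00122) and 3.78-fold against delta cells (−1.92 ± 0.60, adjusted p = 0.0298). The second of these calls was lost without alpha control 1 or 2 or any delta control (adjusted p from 0.0549 to 0.126). It was also lost without beta control 1 and delta control 3 (0.0875), with limma-voom (0.0594) and with the date term (0.0957). Between IFNγ libraries the difference was called again (−2.77 ± 0.59, adjusted p = 0.00241), and lost with the date term (0.319). Tgfb1 and Gdf15 are named here after their values were seen. Tgfb1 was at 5.82, 4.54 and 6.33 CPM in delta controls and at most 1.74 in alpha and 1.71 in beta controls, and was called higher in delta cells against both (2.27 ± 0.70 and 2.42 ± 0.71, adjusted p = 0.0275 and 0.02). Between IFNγ libraries Tgfb1 was called again against beta but not against alpha cells. Gdf15, a stress-responsive ligand, was at 14.6, 18.1 and 5.92 CPM in delta cells and at most 5.49 in the others (2.37 ± 0.68 against alpha and 2.35 ± 0.68 against beta cells, adjusted p = 0.0191 and 0.0184). Between IFNγ libraries Gdf15 was called again against alpha but not against beta cells. Single calls of Tgfb1 and Gdf15 were not followed through the alternatives. Tgfb3, Gdf11, Inhba and Inhbb, the last pair being the β subunits of activins and inhibins, were not called between cell types and had mean TPM between 0.03 and 0.39 in control cells.

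Bmpr1a, Bmpr2 and Acvr2a held the largest shares of type I and type II receptor TPM of the superfamily in the control libraries of each cell type. Bmpr1a, a BMP type I receptor, was the most abundant member of its set, with 49.9% ± 4.2, 45.6% ± 0.9 and 52.7% ± 5.1 of the type I receptor TPM in alpha, beta and delta controls. It was at 133, 105 and 123 CPM in alpha, 98.6, 119 and 167 in beta and 149, 155 and 261.5 in delta controls, and no pair of control groups was called different. The type II receptors Bmpr2 and Acvr2a held 40.8% ± 4.2 and 32.5% ± 5.3 of type II TPM in alpha, 38.5% ± 3.1 and 47.7% ± 2.4 in beta and 42.5% ± 5.0 and 42.6% ± 6.2 in delta cells. Tgfbr2, the type II receptor for TGF-β, was rare, at under 1% of type II TPM in every control group. In control libraries, 3 of 12 receptors differed between alpha and beta, 3 between delta and beta and 3 between delta and alpha cells, where 19.7%, 20.5% and 19.7% of all genes did. Between IFNγ libraries the numbers were 4, 6 and 2, where 27.1%, 36.4% and 16% of all genes were called.

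Acvr1c, which encodes the activin-like type I receptor ALK7, was low in delta cells. It was at 13.7, 9.63 and 11.5 CPM in alpha, 12.5, 11.8 and 19.2 in beta and 1.43, 1.73 and 3.43 in delta controls. Delta cells were below every other library, 6.58-fold against beta (−2.72 ± 0.35, adjusted p = 1.29e-05) and 5.27-fold against alpha cells (−2.40 ± 0.35, adjusted p = 6.2e-05). Bmpr1b, the second BMP type I receptor, was highest in beta cells at 4.70, 5.50 and 5.63 CPM, against 0.726, 0.669 and 0.534 in alpha cells (8.11-fold, adjusted p = 0.00323), and 2.58, 0.324 and 1.87 in delta cells, a pair that was not called.

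Acvr2b, a type II activin receptor, was at 14.5, 11.8 and 18.8 CPM in alpha, 9.69, 5.62 and 7.76 in beta and 7.54, 9.84 and 5.50 in delta controls. Alpha libraries lay above all beta and delta libraries, by 0.97 ± 0.33 against beta cells (adjusted p = 0.0435), with −0.98 ± 0.32 for delta minus alpha (adjusted p = 0.0399). The first call was lost without alpha control 1 or 3, beta control 2 or 3, beta IFNγ 3, delta control 1 or delta IFNγ 1 (0.0527 to 0.192) and the second without alpha control 1 or 3 or delta control 1 or 3 (0.0771 to 0.167), with GC content fitted (0.117) and with the date term (0.0814). Neither was called between IFNγ libraries. Tgfbr2 was at 0.859, 1.84 and 2.08 CPM in delta controls and at most 0.570 in the others, higher in delta cells by 2.80 ± 0.88 against alpha and 2.73 ± 0.88 against beta cells (adjusted p = 0.0311 and 0.0342). Both calls were lost without any 1 of several libraries: without any alpha control or delta control 2 or 3 against alpha cells (0.0748 to 0.132), and without beta control 2 or 3 or delta control 2 or 3 against beta cells (0.0869 to 0.147). With the date term they were at 0.0621 and 0.111, and without the filter on low counts the call against beta cells was at 0.0524. Both were made again between IFNγ libraries (adjusted p = 0.0265 and 0.00774). Of these, the call against alpha cells was lost without alpha IFNγ 2 (0.112), alpha IFNγ 3 (0.105) or delta IFNγ 1 (0.146), and both were lost with the date term (0.169 and 0.509).

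FGF ligands were led by Fgf9, which signals chiefly through the c splice forms of FGF receptors. It made up 57.0% ± 5.0, 65.7% ± 8.3 and 68.4% ± 11.2 of the TPM of the 4 secreted FGFs in alpha, beta and delta controls. Its level was 6.39, 9.50 and 4.59 CPM in alpha, 9.69, 7.84 and 12.5 in beta and 18.1, 21.3 and 24.3 in delta cells. All delta libraries were above all others, 3.12-fold against alpha (1.64 ± 0.29, adjusted p = 0.000392) and 2.13-fold against beta cells (1.09 ± 0.28, adjusted p = 0.00846). The second call was lost without beta control 2 (adjusted p = 0.0556), and without beta control 1 and delta control 3 together (0.0852). Fgf1, Fgf2 and Fgf22 were not called between cell types and had mean TPM between 0.303 and 1.09 in control cells.

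The intracellular FGFs, which regulate sodium channels at the membrane, were abundant in delta cells. Their summed TPM was 16.7 ± 4.7 in delta, 8.49 ± 1.46 in alpha and 3.41 ± 0.61 in beta controls. Fgf14 was nearly absent from beta cells, at 0.142, 0.820 and 0 CPM, while alpha cells had 15.7, 9.37 and 10.3 and delta cells 32.0, 37.9 and 54.5. No groups overlapped. Delta cells exceeded beta cells 112-fold (6.81 ± 0.51, adjusted p = 2.51e-08) and alpha cells 3.53-fold (1.82 ± 0.35, adjusted p = 0.000933), and alpha exceeded beta cells 31.8-fold (4.99 ± 0.52, adjusted p = 1.97e-06). Fgf14 overlaps other annotated genes on both strands, and the sources used here do not say how strand was used in counting. Bmp6, Tgfb2, Wnt5a, Wnt5b, Fgf9, Fgfr1, Fgfr3 and others likewise overlap an annotated gene on the other strand. Fgf12 was at 29.8, 24.6 and 23 CPM in alpha, 10.3, 16 and 17.4 in beta and 32.5, 38.5 and 54 in delta cells. It was higher in delta than in beta cells (1.52 ± 0.25, adjusted p = 0.000231). Alpha cells exceeded beta cells by 0.82 ± 0.26 (adjusted p = 0.0284), a call that was lost without alpha control 1 or 2 or beta control 1 or 2 (0.0507 to 0.133) and without beta control 1 and delta control 3 together (0.0965).

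Fgfr1 was the main FGF receptor of all cells, with 91.1% ± 1.8, 86.9% ± 9.9 and 80.5% ± 2.0 of FGF receptor TPM in alpha, beta and delta controls. Its level was 66.5, 57.8 and 83.5 CPM in alpha, 16.1, 14.5 and 12.9 in beta and 19.9, 21.9 and 14.8 in delta controls. Alpha libraries were above all others, 4.77-fold against beta (2.25 ± 0.30, adjusted p = 2.94e-05) and 3.66-fold against delta cells (−1.87 ± 0.30, adjusted p = 0.000144). In delta cells Fgfr1 was at 27.3% of the alpha level with Gcg at 0.909%. Fgfr3 was the next receptor of delta cells, at 2.10, 2.81 and 1.87 CPM and 12.9% ± 3.7 of receptor TPM, with 0.726, 0.535 and 2.57 CPM in alpha and 0, 0.351 and 0.152 in beta controls. It was higher than in beta cells by 3.57 ± 0.78 in delta (adjusted p = 0.00244) and by 2.79 ± 0.80 in alpha cells (adjusted p = 0.0184). The alpha call was lost without alpha control 3 (0.205), beta control 1 (0.0738) or beta control 3 (0.067), without beta control 1 and delta control 3 together (0.0793) and with the date term (0.277), and was not made between IFNγ libraries. With the date term the delta call was at 0.0559.

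The 7 proteins that carry a family name without being a ligand or receptor are reported apart. Bmp1, a metalloprotease that cleaves procollagen and the BMP antagonist chordin and is not a BMP, was highest in beta cells at 74.4, 56.7 and 66.8 CPM, intermediate in alpha at 21.2, 24.6 and 22.3 and lowest in delta cells at 5.44, 6.6 and 2.91. All groups were apart, with 13.2-fold between beta and delta (−3.72 ± 0.29, adjusted p = 3.51e-08) and 2.90-fold between beta and alpha cells (−1.54 ± 0.26, adjusted p = 0.000302). Delta cells were 4.55-fold below alpha cells (−2.19 ± 0.28, adjusted p = 1.51e-05). Bmp2k, a kinase, was at 9.44, 10.8 and 7.91 CPM in alpha and 19.9, 21.1 and 21.3 in beta cells (−1.15 ± 0.31, adjusted p = 0.0136; 0.0722 without alpha control 3).

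Tgfbrap1, an endosomal adaptor that associates with TGF-β receptors, was at 41.5, 58.6 and 39.0 CPM in delta, 76.7, 72.3 and 88.3 in alpha and 73.6, 65.9 and 75.5 in beta controls. It was lower in delta than in alpha cells (−0.77 ± 0.19, adjusted p = 0.00646). The difference from beta cells (−0.63 ± 0.19, adjusted p = 0.0216) was lost without beta control 1 or 3 or delta control 1 or 3 (0.0627 to 0.0923) and without beta control 1 and delta control 3 together (0.159). Fgfr1op, a centrosomal protein, was at 20.3, 23.5 and 33.3 CPM in delta, 10.8, 12.4 and 15.2 in alpha and 8.97, 14.3 and 16.4 in beta controls. Its differences from alpha (1.00 ± 0.31, adjusted p = 0.0297) and beta cells (0.96 ± 0.31, adjusted p = 0.0357) were lost with limma-voom (0.0529 and 0.0574). They were also lost without delta control 3 (0.149 and 0.153), without alpha control 1 or 2 (0.108 and 0.082) or without beta control 1 or 2 or delta control 2 (0.165, 0.0744 and 0.0568). Fgfr1op2, the most abundant of these proteins by TPM, was at 75.1, 72.4 and 47.4 CPM in alpha, 81.5, 91.9 and 118 in beta and 64.5, 64.3 and 123 in delta controls, without a call.

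**Figure D4:**
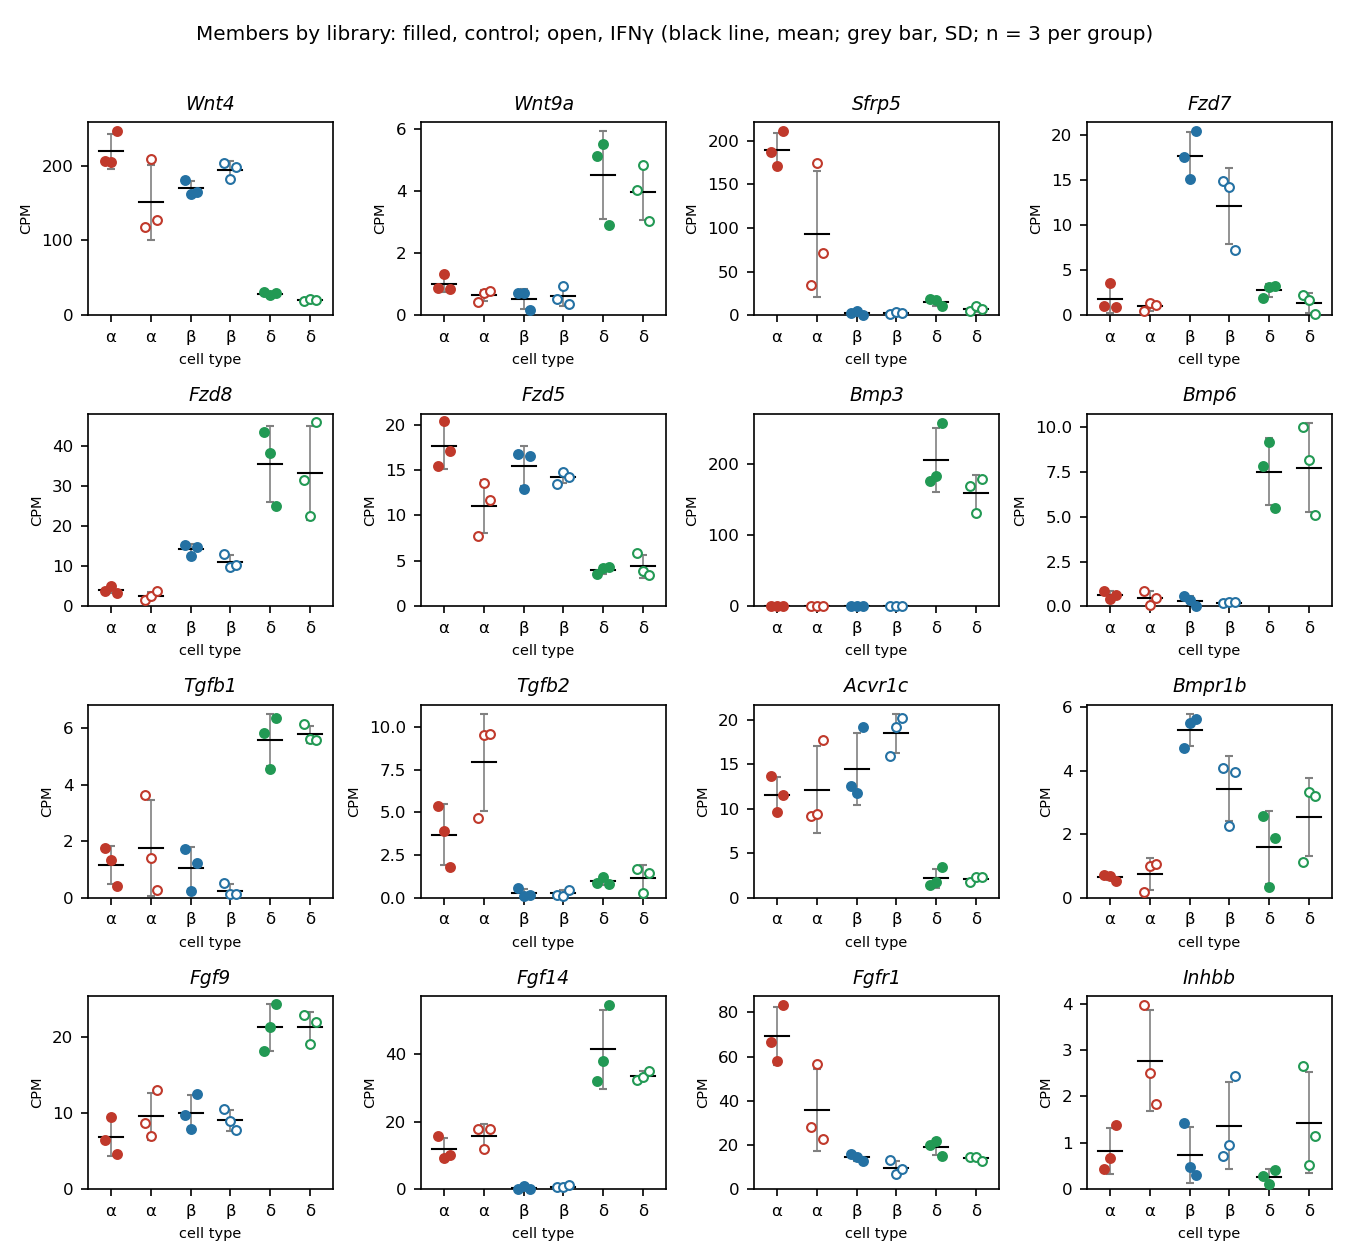
Levels in CPM of 16 members in every library (filled circles, control; open circles, IFNγ; black line, mean; grey bar, SD; n = 3 per group). Bmp3, Bmp6, Tgfb1, Fgf9, Fgf14 and Fzd8 were highest in delta libraries, Sfrp5, Tgfb2 and Fgfr1 in alpha libraries and Fzd7 and Bmpr1b in beta controls. For Wnt4, Sfrp5 and Fgfr1, alpha IFNγ 2 lay among or next to the alpha controls while alpha IFNγ 1 and 3 were lower.

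Pathway genes outside these families, taken from a list of co-receptors, antagonists, transducers and target genes, differed between the cell types in directions of their own. Of 27 tested Wnt pathway genes, 3 were higher and 8 lower in alpha than in beta cells, where 9.56% of all genes were higher and 10.1% lower. Lrp5, the Wnt co-receptor, was at 2.47, 5.89 and 4.38 CPM in alpha, 48.3, 31 and 23.6 in beta and 39.8, 47.8 and 25 in delta controls (−3.0 ± 0.36 for alpha against beta, adjusted p = 8.62e-06), while its relative Lrp6 stood between 118 and 217 CPM in all controls. Wls, which carries Wnts to the cell surface, was at 53, 76.1 and 58.5 CPM in alpha, 173, 164 and 201 in beta and 37.1, 45.3 and 63.4 in delta cells (−1.52 ± 0.24 for alpha and −1.88 ± 0.24 for delta against beta cells, adjusted p = 0.00017 and 1.37e-05). Axin2, a target gene of β-catenin, was higher in alpha cells, at 27.3, 22.9 and 16.5 CPM, than in beta cells, at 10.7, 9.37 and 8.06 (1.24 ± 0.28, adjusted p = 0.004), and was not called between the IFNγ libraries of these cells (0.72 ± 0.28, adjusted p = 0.0597). Nkd2, a feedback inhibitor of Wnt signalling, and the transcription factor Lef1 went the other way, lower in alpha than in beta cells (−3.73 ± 1.12 and −2.98 ± 0.97, adjusted p = 0.0242 and 0.038), with at most 0.134 and 0.427 CPM in alpha controls. Between IFNγ libraries Lef1 was called again (adjusted p = 0.0441) and Nkd2 was not (0.405). Between delta and beta cells 4 genes were higher and 4 lower (all genes, 11.4% and 9.11%), and between delta and alpha cells 7 were higher and 2 lower (all genes, 10.9% and 8.77%).

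Of 32 tested TGF-β and BMP pathway genes, 9 were higher and 1 lower in alpha than in beta cells, 9 higher and 1 lower in delta than in beta cells, and 9 higher and 6 lower in delta than in alpha cells. The shares of all genes were 9.56% and 10.1%, 11.4% and 9.11%, and 10.9% and 8.77%. The Id genes, targets of BMP signalling, divided between the cell types, with Id1 and Id3 highest in alpha and Id2 and Id4 highest in delta cells. Id1 was at 15, 24.6 and 13 CPM in alpha, 0.427, 0.117 and 0 in beta and 1.15, 0.108 and 0.519 in delta controls (−4.83 ± 0.86 for delta against alpha, adjusted p = 0.000509). Id3 was at 27.0, 24.9 and 37.0 CPM in alpha and at most 1.64 in beta and 4.00 in delta controls (−3.80 ± 0.71, adjusted p = 0.000724). Id2 was at 46.6, 35.4 and 46.0 CPM in delta, 25.4, 24.1 and 12.7 in alpha and 11.8, 15.2 and 12.2 in beta controls (1.04 ± 0.28 for delta against alpha, adjusted p = 0.0141). Id4 was at 14, 18.4 and 22.3 CPM in delta, 4.79, 5.49 and 5.45 in alpha and 2.56, 3.28 and 1.06 in beta controls (1.79 ± 0.34 for delta against alpha, adjusted p = 0.000835), and that difference was not called between IFNγ libraries (0.30 ± 0.32, adjusted p = 0.611). The receptor-regulated Smad9 was at 12.1, 11.5 and 5.56 CPM in alpha and at most 1.05 in the others, and the inhibitory Smad7 was higher in alpha cells than in beta (1.25 ± 0.21, adjusted p = 0.000345) and delta cells (delta minus alpha −0.93 ± 0.21, adjusted p = 0.00389). Delta cells had more of the antagonist Nbl1 (16.9, 13.1 and 7.27 CPM against at most 1.87 in alpha and 2.85 in beta) and of the pseudoreceptor Bambi (57.7, 69.6 and 59.3 CPM against 15.8, 20.7 and 22.8 in alpha and 15.8, 17.1 and 9.74 in beta). The antagonist gene Nog had no count in any library.

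Of 16 tested FGF pathway genes, 9 were higher and 1 lower in alpha than in beta cells, 9 higher and 1 lower in delta than in beta cells, and 5 higher and 3 lower in delta than in alpha cells, where the shares of all genes were those of the preceding list. Klb, the co-receptor for endocrine FGFs, was at 53.2, 47.0 and 53 CPM in alpha, 12.7, 14.5 and 18.8 in delta and 1.57, 4.33 and 0.761 in beta controls (4.46 ± 0.39 for alpha against beta, adjusted p = 3.36e-07). Etv1, a transcription factor downstream of FGF receptors, was at 418, 394 and 401 CPM in alpha and 397, 446 and 571.5 in delta, but 24.6, 56.5 and 42.0 in beta controls. Dusp6, a phosphatase of the same pathway, was higher in delta cells at 10.2, 17.8 and 16.2 CPM than in alpha and beta cells, which had at most 4.42 (2.44 ± 0.41 against beta, adjusted p = 0.000232). Spry2 was lower in delta cells, at 4.20, 3.57 and 3.43 CPM against 8.69, 6.44 and 8.06 in beta cells (−1.04 ± 0.25, adjusted p = 0.00458).

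IFNγ left no member called. By edgeR, 0 of 53 members passed an adjusted p under 0.05 in alpha, beta or delta cells, where 0.975%, 1.06% and 1.39% of all genes did. At an unadjusted p under 0.05 there were 13 members in alpha (24.5%, all genes 21.6%), 3 in beta (5.66%, all genes 4.26%) and 7 in delta cells (13.2%, all genes 11.7%). The libraries of control and IFNγ cells did not overlap for 8, 6 and 6 members, against 18.6%, 10.9% and 15.5% of all genes. DESeq2 gave 29 members an adjusted p in alpha cells and called 2 of them (6.9%, all genes 4.96%). These were Fgfr1, lower (−0.96, adjusted p = 0.0405), and Fgfr1op, higher (1.00, adjusted p = 0.0494). It called none in beta or delta cells (all genes, 1.27% and 2.27%), and limma-voom called none. Without the filter on low counts, edgeR called 6 members in alpha cells (11.3%, all genes 4.44%), namely Fgfr1, Sfrp5 and Gdf15 lower and Bmpr1a, Fgfr1op and Fgfr1op2 higher. In delta cells it called 1 member (1.89%, all genes 1.83%), Sfrp5, lower (adjusted p = 0.00567). The difference in response between cell types was tested too. No member and no gene at all was called for alpha against beta, delta against beta or delta against alpha, and 8, 2 and 5 members (15.1%, 3.77% and 9.43%) had an unadjusted p under 0.05, where 13.3%, 4.74% and 4.52% of all genes did.

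The intervals show how far a change could still lie from 0. In alpha cells the 95% interval lay within 2-fold in both directions for 8 of 53 members, in beta cells for 17 and in delta cells for 19, so for the others a change above 2-fold was within the interval. Estimates ran from −2.60 (Wnt5b) to 1.79 (Bmp3, at under 1.3 CPM) in alpha, from −2.11 (Tgfb1) to 1.13 (Wnt5a) in beta and from −1.36 (Fzd1) to 2.32 (Inhbb) in delta cells. For the abundant Wnt4, the interval was −0.93 to −0.14 in alpha, −0.20 to 0.59 in beta and −0.92 to −0.10 in delta cells.

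**Figure D5:**
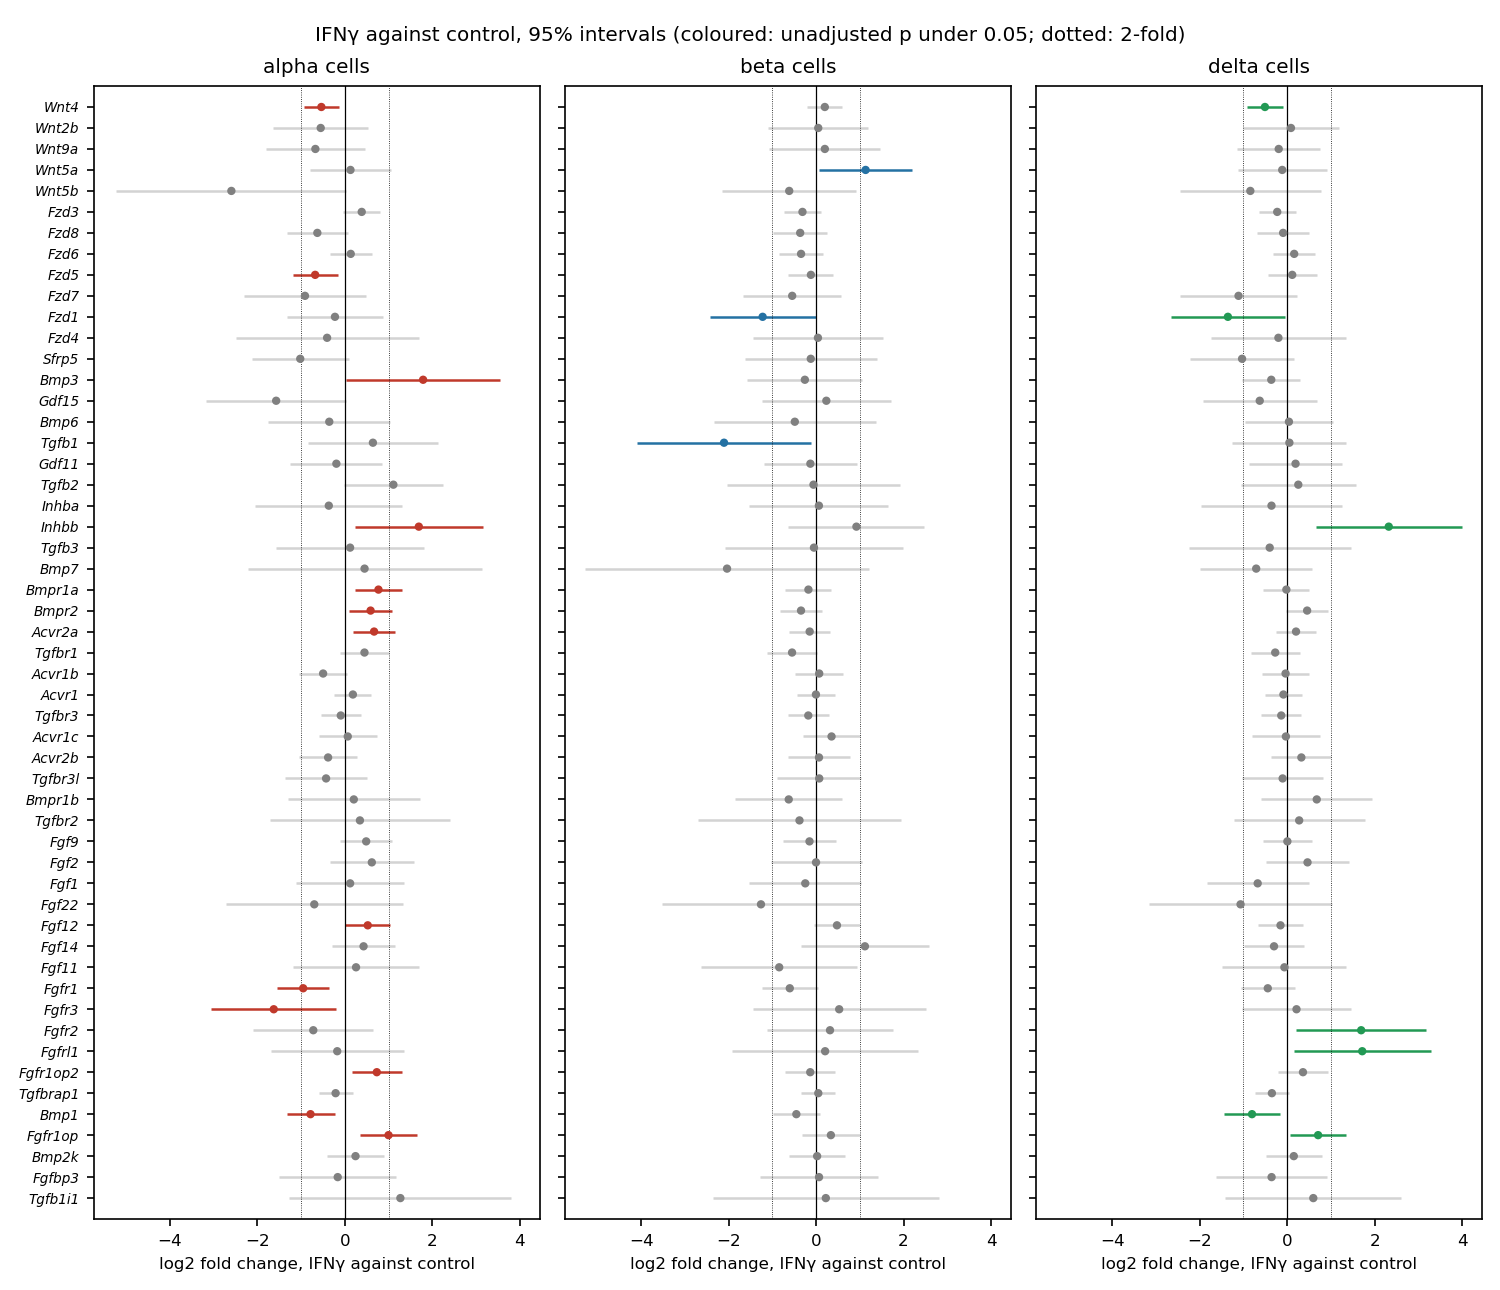
Log2 fold changes with IFNγ against control in alpha, beta and delta cells for the 53 tested members, ordered by role, with 95% intervals; coloured intervals have an unadjusted p under 0.05, and dotted lines mark 2-fold. No adjusted p was under 0.05, and coloured intervals number 13 in alpha, 3 in beta and 7 in delta cells.

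In alpha cells the IFNγ libraries did not move together. Sfrp5 was at 34.9, 174 and 71.1 CPM with IFNγ and 187, 171 and 211 in controls, so that only alpha IFNγ 2 lay within the control range (−1.02 ± 0.53, adjusted p = 0.256). Fgfr1 was at 28.0, 56.7 and 22.5 CPM with IFNγ against 66.5, 57.8 and 83.5 (−0.96 ± 0.29, adjusted p = 0.133), and Wnt4 at 117, 209 and 127 against 207, 205.5 and 247 (−0.54 ± 0.19, adjusted p = 0.156). Bmpr1a was at 240, 142 and 232 CPM against 133, 105 and 123 (0.77 ± 0.25, adjusted p = 0.151). For all of these alpha IFNγ 2 was the library nearest the controls. Without alpha IFNγ 2, 12 members (22.6%) were called in alpha cells, where 20.8% of all genes were called in the same fit, with Sfrp5 at −1.84 (adjusted p = 0.021), Fgfr1 at −1.45 (0.00241), Wnt4 at −0.84 (0.00413) and Bmpr1a at 0.97 (0.0138), and 5 members (9.43%, all genes 7.62%) were called for a response that differed between alpha and beta cells. The balance between transcripts of low and high GC content moved with this. It was 0.992 and 0.846 on the log2 scale in alpha IFNγ 1 and 3, −0.536 in alpha IFNγ 2 and between −0.744 and −0.458 in alpha controls. Among the members, the 27 with lower GC content (39.6% to 52.5%) had a median change of 0.34 in alpha cells with IFNγ, with 20 of 27 estimates above 0, and the 26 with higher GC content (52.5% to 63.4%) a median of −0.46, with 7 of 26 above 0. When GC content was fitted per library, Sfrp5 was at −0.49 ± 0.40, Wnt4 at −0.13 ± 0.14, Fgfr1 at −0.58 ± 0.19 and Bmpr1a at 0.50 ± 0.19, 5 members had an unadjusted p under 0.05, where 9.55% of all genes did, and none was called.

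Inhbb, named after its values were seen, was the member of lowest unadjusted p in delta cells. It encodes the βB subunit shared by activin B and inhibin B. Its level was 2.64, 0.510 and 1.15 CPM in delta cells with IFNγ against 0.286, 0.108 and 0.415 in controls (2.32 ± 0.80, adjusted p = 0.243). In alpha cells it was at 3.97, 2.51 and 1.84 against 0.436, 0.669 and 1.39 (1.69 ± 0.70, adjusted p = 0.188), and in beta cells at 0.711, 0.948 and 2.45 against 1.42, 0.468 and 0.304 (0.92 ± 0.74, adjusted p = 1). The IFNγ and control libraries did not overlap in alpha and delta cells and overlapped in beta cells. With GC content fitted, the changes were 2.55 ± 0.74 in alpha and 2.62 ± 0.84 in delta cells (adjusted p = 0.167 and 0.165). The total over all libraries was 205 counts.

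Promoter windows were searched for the ISRE letters, the element bound by interferon regulatory factors. RefSeq promoter sequences on GRCm38.p6 were matched for 40 of 54 members. In the 250 bases before the start, on both strands, a pair of GAAA runs 2 bases apart occurred for 3.46% of 27025 genes. Of the genes called higher with IFNγ, 118 of 163 (alpha), 131 of 183 (beta) and 141 of 209 (delta) had a promoter sequence. Of those with a sequence, 30.5% held the pair in alpha, 29% in beta and 29.1% in delta cells. Among the 40 members, 1 held it, Inhbb, a share of 2.5% that is not above that of all genes. The stretch around the match is shown with the match in capitals. It lies at chr1:119422377-119422498 on the minus strand, is written 5′ to 3′ along the gene and overlaps no annotated exon, with the match starting 198 bases before the RefSeq start.
Inhbb: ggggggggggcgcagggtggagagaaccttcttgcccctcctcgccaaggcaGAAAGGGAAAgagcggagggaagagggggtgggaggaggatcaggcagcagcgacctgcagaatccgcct
The match is a description of these letters.

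Of the pathway genes outside the families, 2 were called with IFNγ, both in delta cells, where 1.39% of all genes were called. The lists held 27, 32 and 16 tested genes for Wnt, TGF-β and BMP, and FGF. Tcf7l2, a transcription factor that acts with β-catenin, was at 39.1, 53.6 and 26.6 CPM with IFNγ and 18.3, 14.3 and 14.9 in controls (1.32 ± 0.25, adjusted p = 0.00464). In alpha cells it was at 40.4, 39.1 and 30.5 against 31.4, 25.2 and 17.2, and in beta cells at 19.5, 16.5 and 18.6 against 10.8, 12.2 and 12.6, without a call. Kl, which encodes the FGF co-receptor Klotho, was at 4.04, 5.99 and 6.06 CPM in delta cells with IFNγ and 10.9, 12.7 and 19.3 in controls (−1.40 ± 0.29, adjusted p = 0.0121). Its levels were 35.9, 52.1 and 69.4 against 71.2, 74.9 and 90.1 in alpha cells and 11.7, 18.6 and 12.5 against 20.8, 29.3 and 21.4 in beta cells, with no overlap but no call. No date in the file names holds both control and IFNγ delta libraries. With the date term each delta group was compared through a single library, so date and treatment are poorly separated in delta cells. That fit was not followed for Tcf7l2 or Kl. The GC balance was −0.096, −0.066 and 0.836 in delta controls and 0.786, 0.428 and 0.857 with IFNγ. The fit with GC content was not followed for these genes, so the part of GC content in these changes was not tested. Of the whole list, no other gene of 27, 32 and 16 tested was called in any cell type.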

How the data were processed

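RNA of 18 libraries was measured. The authors prepared rRNA-depleted libraries from total RNA, aligned paired reads with STAR 2.5.2b to GRCm38 and deposited RSEM expected counts, TPM and FPKM per gene (RSEM's version: not given in the sources used here). FPKM as deposited was not used, and deposited TPM served only for levels and shares. Expected counts were rounded and tested with edgeR 4.0.16 (R 4.3.3, quasi-likelihood F-test, filterByExpr with a minimum count of 10, TMM, 1 fit over all libraries, Benjamini-Hochberg over 17338 genes). Differences are log2 with SE. The study used DESeq2 1.32.0 with a batch that the labels do not give. Alternatives were DESeq2 1.42.0, limma-voom (limma 3.58.1), other scaling, no filter, a replicate block, the date in the file names, a GC content offset and libraries left out. Scripts were tested on simulated counts. Symbols and coordinates came from GENCODE M21 on GRCm38, while the study names a later release. CPM used rounded counts. Counting intervals of ratios of summed counts, and floors, cover counting error only, and PCR copies are counted. The intervals of changes with IFNγ were instead taken from the SE of the edgeR fit.

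Members, lists and tests were chosen with earlier results of these data known. Named with values per library were, per role, the 4 members of largest change among those called between control cell types without overlap and the member of highest TPM, and members called with IFNγ. Others are marked where named. Some items are not reported here.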

Additional observations from a re-analysis of the deposited data

How the results depend on the processing

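No call of a named member between cell types changed direction under any alternative. Of 104 such calls, 104 were also made by DESeq2 and with DESeq2 size factors, 101 with GC content fitted, 100 by limma-voom, 102 without the filter on low counts, 91 without beta control 1 and delta control 3, and 69 with date as a fixed term. The date term lowered the number of members called for delta against beta and delta against alpha cells among IFNγ libraries. In that fit each delta group was compared through 1 library, so an effect of date and the loss of replicates cannot be told apart. DESeq2 called 2 members with IFNγ in alpha cells (6.9%, all genes 4.96%) where edgeR called 0. Without the filter the number was 6 in alpha (11.3%, all genes 4.44%) and 1 in delta cells (1.89%, all genes 1.83%). Leaving out 1 library gave 10 to 17 members for alpha against beta, 17 to 23 for delta against beta and 16 to 24 for delta against alpha controls. Among IFNγ libraries the ranges were 11 to 21, 21 to 28 and 17 to 21. The number was 10 without alpha control 1 or alpha control 3 and 11 without alpha IFNγ 1. With IFNγ it was 0 to 12 in alpha cells, where 12 came without alpha IFNγ 2 (22.6%, all genes 20.8%), and 0 in beta and delta cells. For the response of alpha against beta cells it was 0 to 5, with 5 without alpha IFNγ 2 (9.43%, all genes 7.62%), and it was 0 for the other response differences. For the other left-out libraries and the replicate block below, the shares of all genes called were not computed. Deviations of same-numbered libraries from their group means had a mean correlation of 0.022 over 45 pairs, 14 of them above 0.1, so the numbers were not taken to pair samples (0.177 over 18 pairs for libraries of the same date). Of the libraries, 14 of 18 libraries correlated best, on average, with their own number, a hint from the data and not the design. With the replicate block, 16, 22 and 21 members were called between controls (16, 22 and 21 without it), 20, 27 and 21 between IFNγ libraries and 0 with IFNγ in any cell type. Of the named calls, 1 was lost under the block, Tgfb2 for delta against beta IFNγ libraries (adjusted p = 0.0571). Depth limits the members below 1 CPM, such as Bmp7 outside delta cells.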
